A study of Macaca mulatta with 12 samples.

Results

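The genes examined were TPH2 and 5 genes that make, recycle or regulate its cofactor, namely GCH1, GCHFR, PTS, SPR and PCBD1. All probe sets that carry 1 of these 6 symbols in the array's gene table were taken, whatever their values. This gave 6 of the 14132 genes named in that table and 7 of 52865 probe sets, 1 for each gene except PCBD1, which had 2. All 7 were bright enough to be tested.

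RNA came from a block of the dorsal raphe of 12 female rhesus monkeys, with 1 Affymetrix rhesus array per animal. There were 4 groups of 3 animals: estrogen, estrogen plus progesterone, progesterone and placebo. Crystalline steroid in Silastic capsules stayed under the skin for 1 month in the treated animals. Titles of placebo arrays include OVX, which usually stands for ovariectomized, and the other titles do not state whether the hormone-treated animals had the same surgery. The progesterone arrays carry EP in their titles and P in their descriptions and were taken as progesterone alone. The labels give no hormone dose and no ages, and nothing in them limits the block to serotonin neurons. The p-values measure the spread between these animals, so the precision is set by 3 animals per group.

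Serotonin is made from tryptophan in 2 enzymatic steps. Tryptophan hydroxylase, in brain neurons the TPH2 enzyme, carries out the first and rate-limiting step and needs tetrahydrobiopterin as a cofactor, which is oxidized in each round. The cofactor is built from GTP by GTP cyclohydrolase (GCH1), 6-pyruvoyltetrahydropterin synthase (PTS) and sepiapterin reductase (SPR), and GCH1 is the usual control point. GCHFR, the GTP cyclohydrolase feedback regulatory protein, binds GCH1 and lets the cofactor inhibit it. PCBD1 dehydrates the spent cofactor so that it can be reduced and used again. The same cofactor serves tyrosine hydroxylase and nitric oxide synthases, so the cofactor genes are not private to serotonin neurons. In a tissue block, fewer cells of a type and less RNA per cell cannot be told apart.

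Before the members, the arrays as a whole need a short account. The first arrays of the estrogen, estrogen plus progesterone and placebo groups stood apart from the other 9 on the first principal component, at -44.9, -44.0 and -51.6 beside -1.6 to 29.0, and member values are given with and without them where this matters. The 3 progesterone arrays were the lowest in the log2 difference between 3′ and 5′ probe sets of the transcript EF1A, -0.37 to -0.31, beside -0.08 to 0.74 in the other 9. For GAPDH the same difference overlapped (0.11 to 0.59 with progesterone, 0.34 to 1.11 in the others). For ACTB it lay at the upper end with progesterone (0.66 to 1.23, beside 0.11 to 0.90 in the others). Scores on principal component 2 were negative in every progesterone array (-14.1, -46.3 and -54.5) and positive in the other 9 (0.5 to 20.4). The part of these differences in the results below was not tested. The term arrays apart is kept for the 3 first arrays named above, so results without them still include all 3 progesterone arrays. Of 9 listed serotonin neuron markers 7 had a probe set. Mean log2 intensities were 10.12 for SLC18A2, the vesicular monoamine transporter, 9.47 for FEV, the serotonin neuron transcription factor, 9.31 for GATA3 and 7.40 for GATA2. SLC22A3 (6.18), HTR1A (5.07) and LMX1B (3.75) averaged below 6.41, the mean of the brightest of 23 control probe sets that have no target in monkey RNA. The median of the 23 control means was 3.36, and these means were taken before normalization.

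TPH2 was the most variable member, with and without its lowest array. The deposited intensity (linear, scaled per array) of TPH2 was 158, 133 and 157 in the estrogen arrays, 445, 372 and 180 with estrogen plus progesterone, and 213, 129 and 32.7 with progesterone, against 87.6, 177 and 223 with placebo. The estrogen arrays lay close together inside the placebo range, the combined treatment held the 2 highest of all 12 arrays, and the third progesterone array was the lowest. That lowest value, log2 4.66 after normalization, lay below the mean of the brightest control without a target (6.41). No exact fold is given against this array alone, but the progesterone group mean and the folds drawn from it include it. Over the other 11 arrays the highest TPH2 intensity was 5.08 times the lowest, beside 1.47 to 2.09 times for the other 6 probe sets. The lowest of those 11, the first placebo array (log2 6.47), also lay near that control, so the 5.08 is approximate. TPH2 had the lowest mean of the 7 probe sets, log2 7.31 beside 7.95 to 10.24. The part of this low level in its spread was not tested.

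**Figure D1:**
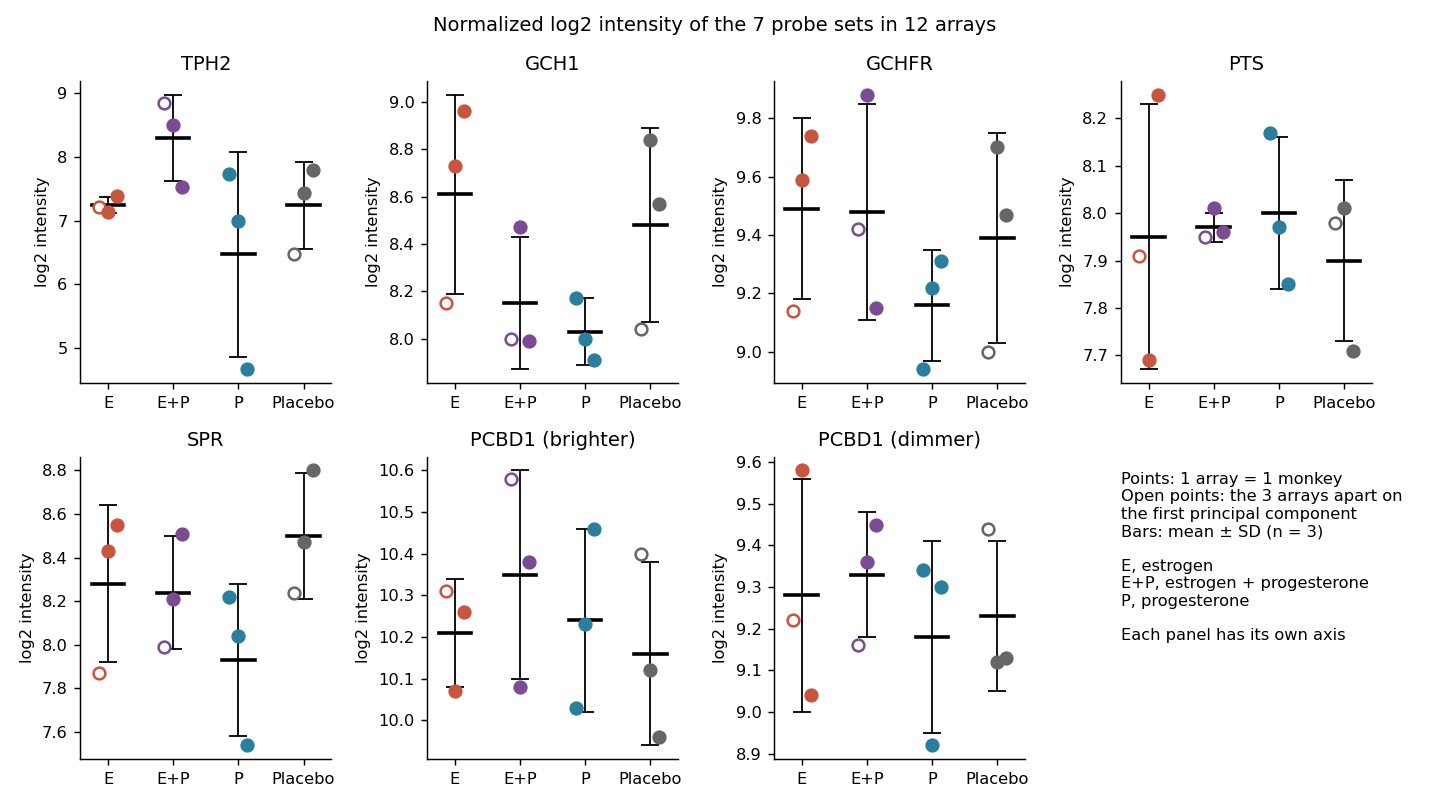
Normalized log2 intensity (y axis, a separate scale in each panel) of the 7 probe sets by treatment group (x axis: estrogen, estrogen plus progesterone, progesterone, placebo), with 1 point per array and bars for the mean ± SD of 3 arrays; open points are the 3 arrays that stood apart. TPH2 spans 4.66 to 8.85, while the other panels span 1.27 log2 units or less.

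The spread between animals of the same group shows the same contrast. The residual SD of TPH2 around its group means was 0.94 on the log2 scale, above 98.6% of the 26383 probe sets tested, whose median was 0.279. Without the third progesterone array it was 0.559, above 91.3% of the probe sets (median 0.272). The spread was uneven: the SD was 0.13 in the estrogen group, 0.68 with estrogen plus progesterone, 1.61 with progesterone and 0.69 with placebo (log2, n = 3 each), while the limma model assumes 1 spread for all. GCH1 (0.332), SPR (0.319) and GCHFR (0.314) had residual SDs near the middle of all probe sets, and PTS (0.183) and the PCBD1 probe sets (0.210 and 0.216) were among the steadier ones.

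**Figure D2:**
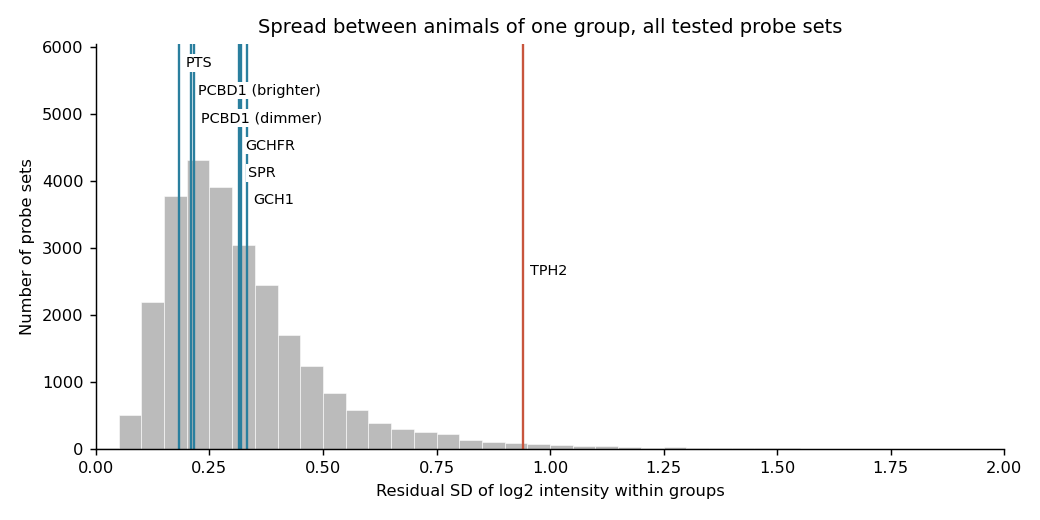
Distribution of the residual SD within groups (x axis, log2 units) over 26383 tested probe sets (y axis, number of probe sets; values of 2 or more are in the last bin), with lines at the 7 member probe sets. TPH2, at 0.94, lies in the far right tail, and the other 6 lie between 0.183 and 0.332.

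With this spread, a difference between 2 groups was measured to within ± 1.42 log2 units for TPH2 (95% confidence interval), a factor of 2.68. Without the third progesterone array estrogen minus placebo was measured to within ± 0.87, a factor of 1.83. The interval was ± 0.56 for GCH1, ± 0.54 for SPR, ± 0.53 for GCHFR, ± 0.37 for PTS, and ± 0.40 and ± 0.41 for the brighter and the dimmer PCBD1 probe set.

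For TPH2 the order of the group means was estrogen plus progesterone (8.30 ± 0.68, log2, SD, n = 3), estrogen (7.25 ± 0.13), placebo (7.24 ± 0.69) and progesterone (6.47 ± 1.61). No step between neighbours in this order exceeded its interval. The widest gap, estrogen plus progesterone minus progesterone, was 1.83 ± 0.65 (log2, SE), a 3.57-fold difference with a 95% confidence interval from 1.33-fold to 9.55-fold. It did not pass the threshold (limma adjusted p = 0.323, unadjusted p = 0.0159). The groups overlapped, since the first progesterone array (7.74) lay above the third of the combined treatment (7.53). The gap was 0.93 without the third progesterone array, at 4.66, and 2.47 without the first. Without the 3 arrays apart it was 1.56 (adjusted p = 0.380).

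Adding progesterone to estrogen gave the 1 comparison of TPH2, of the 6 between pairs of groups, in which the groups did not overlap. All 3 arrays of estrogen plus progesterone (8.85, 8.51 and 7.53) lay above all 3 of estrogen (7.22, 7.14 and 7.39), as they did for 4.04% of all probe sets tested. The difference was 1.05 ± 0.65 (log2, SE), or 2.07-fold with an interval from 0.77-fold to 5.55-fold, and did not pass (limma adjusted p = 1.0, unadjusted 0.133). With only these 6 arrays in the fit the unadjusted p of TPH2 was 0.0140 and the adjusted p 1.0. Against placebo the combined treatment gave a 2.09-fold difference in TPH2 (interval 0.78 to 5.60), estrogen 1.01-fold (0.38 to 2.70) and progesterone 0.59-fold (0.22 to 1.57). Leaving out 1 array moved the combined difference between log2 0.68 and 1.45, the estrogen difference between -0.37 and 0.29, and the progesterone difference between -1.41 and 0.13. Without the first placebo array, the lowest of its group at 6.47, the estrogen difference turned to -0.37. The progesterone difference was 0.13 without the third progesterone array.

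Averaged over both progesterone states, TPH2 differed by 0.92 ± 0.46 (log2, SE) between the 6 arrays with estrogen, 7.14 to 8.85, and the 6 without, 4.66 to 7.80 (limma adjusted p = 0.680, unadjusted 0.0683). It was 0.47 without the third progesterone array and 0.60 without the 3 arrays apart. The interaction, that is the estrogen effect in the presence of progesterone minus that in its absence, was 1.82 ± 0.92 (adjusted p = 0.785). It was 0.92 without the third progesterone array.

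GCH1, the enzyme at the head of cofactor synthesis, had its lower values in animals given progesterone, with or without estrogen. Its deposited intensity was 281, 434 and 519 in the estrogen arrays, 259, 361 and 249 with estrogen plus progesterone, and 293, 252 and 248 with progesterone, against 260, 462 and 385 with placebo. In the estrogen and placebo groups the low array was in each case the one that stood apart. The 6 arrays with progesterone held log2 values from 7.91 to 8.47, against 8.04 to 8.96 in the 6 without, a difference of -0.46 ± 0.18 (SE). It did not pass the threshold (limma adjusted p = 0.743, unadjusted 0.0263), and leaving out 1 array moved it between -0.57 and -0.37.

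Without the 3 arrays apart the GCH1 difference was -0.65 ± 0.15 and still did not pass (adjusted p = 0.446, unadjusted 0.00183). In those 9 arrays the 5 with progesterone (7.91 to 8.47) lay below all 4 without (8.57 to 8.96), as did 1.15% of all probe sets tested. The GCH1 interaction was -0.01 ± 0.36 (adjusted p = 0.999): the difference on adding progesterone was -0.46 ± 0.25 with estrogen present and -0.45 ± 0.25 without it (SE, adjusted p = 1.0 and 0.602). Estrogen minus progesterone was the widest gap in GCH1, 0.59 ± 0.25 or 1.5-fold (interval 1.02 to 2.21, adjusted p = 0.494, unadjusted 0.0402). Leaving out 1 array moved that gap between 0.41 and 0.82.

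GCHFR, which restrains GCH1, had intensities of 541, 789 and 904 with estrogen, 650, 959 and 579 with estrogen plus progesterone, and 501, 592 and 607 with progesterone, against 512, 835 and 721 with placebo. The groups overlapped throughout. The group means, 9.49 ± 0.31, 9.48 ± 0.37, 9.16 ± 0.19 and 9.39 ± 0.36 in that order (log2, SD, n = 3), stayed within 0.33 of each other. The largest difference of GCHFR was estrogen minus progesterone (0.33 ± 0.24, SE, limma adjusted p = 0.715).

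PTS, the enzyme of the second synthetic step, was the steadiest member. Its intensity was 243, 202 and 306 with estrogen, 250, 259 and 243 with estrogen plus progesterone, and 292, 246 and 239 with progesterone, against 250, 261 and 209 with placebo. The means differed by at most 0.10 between any 2 groups (progesterone minus placebo, 0.10 ± 0.17, log2, SE, adjusted p = 0.906), and the interval of that difference ran from -0.28 to 0.47.

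SPR, which completes the cofactor, had intensities of 238, 351 and 382 with estrogen, 256, 299 and 364 with estrogen plus progesterone, and 302, 261 and 197 with progesterone, against 299, 357 and 451 with placebo. Progesterone minus placebo was -0.57 ± 0.25 (log2, SE), or 0.67-fold with an interval from 0.46-fold to 0.98-fold, and did not pass (limma adjusted p = 0.478, unadjusted 0.0400). After normalization the 3 progesterone arrays (8.22, 8.04 and 7.54) lay below all placebo arrays (8.24, 8.47 and 8.80), as they did for 7.86% of all probe sets tested. The margin was 0.02, and in the deposited intensities the first progesterone array (302) lay above the first placebo array (299). Without the third progesterone array the SPR difference was -0.37. In all 3 groups that have an array apart, that array held the lowest SPR of its group.

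The 2 probe sets of PCBD1 ranked the arrays differently. On the brighter one the intensity was 1225, 1109 and 1302 with estrogen, 1483, 1106 and 1371 with estrogen plus progesterone, and 1064, 1194 and 1286 with progesterone, against 1372, 1107 and 1006 with placebo. On the dimmer one it was 572, 786 and 548 with estrogen, 549, 666 and 715 with estrogen plus progesterone, and 661, 479 and 602 with progesterone, against 704, 561 and 568 with placebo. The second estrogen array was the highest of 12 on the dimmer probe set (log2 9.58) and ranked 10 of 12 on the brighter one (10.07). All group differences of PCBD1 lay between -0.05 and 0.19 (log2) on both probe sets, and their signs differed for progesterone minus placebo (0.08 on the brighter, -0.05 on the dimmer) and for estrogen minus progesterone (-0.03 and 0.09).

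**Figure D3:**
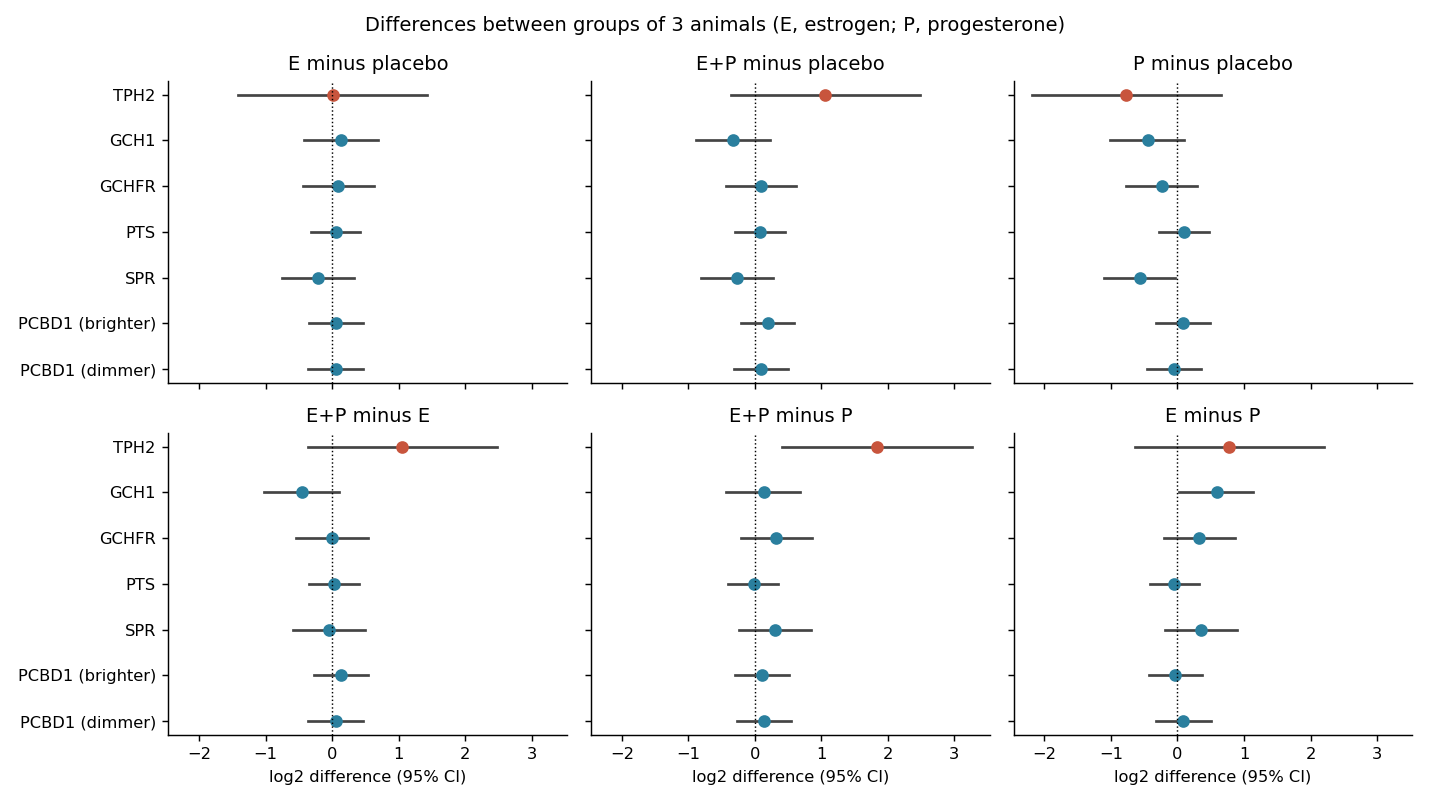
Log2 differences (x axis, points) with 95% confidence intervals (lines) for the 7 probe sets (rows) in the 6 comparisons between pairs of groups, first group minus second. The intervals of TPH2 are the widest, and the only intervals that leave out 0 are TPH2 in estrogen plus progesterone minus progesterone, GCH1 in estrogen minus progesterone and SPR in progesterone minus placebo, none of which passed the threshold over all probe sets.

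Read over all comparisons, no member passed. Limma (adjusted p under 0.05) called 0 of the 7 probe sets in estrogen minus placebo (background 0.0%, with 0 of 7 at an unadjusted p under 0.05 beside 2.65% of all probe sets), in estrogen plus progesterone minus placebo (background 0.0%, 0 of 7 beside 3.85%) and in progesterone minus placebo (background 0.133%, 1 of 7, SPR, beside 9.87%). It called 0 in estrogen plus progesterone minus estrogen (background 0.0%, 0 of 7 beside 2.98%), in estrogen plus progesterone minus progesterone (background 0.0834%, 1 of 7, TPH2, beside 11.4%) and in estrogen minus progesterone (background 0.133%, 1 of 7, GCH1, beside 9.85%). The main effects of estrogen and of progesterone and their interaction also gave 0 calls each (background 0.0% in each, with 0, 1 and 0 of 7 beside 7.63%, 6.25% and 6.40%). The F test over the 4 groups called 0 of 7 (background 0.0758%), with adjusted p of 0.724 for TPH2 and 0.756 for GCH1.

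By direction, 6 of the 7 probe sets had a higher mean with estrogen than with placebo (median log2 difference 0.05, beside -0.007 over all probe sets tested). The count was 5 of 7 with estrogen plus progesterone (median 0.09 beside -0.012) and 2 of 7 with progesterone (median -0.23 beside -0.023). These comparisons share the placebo arrays. In the arrays with estrogen all 7 had a higher mean than in those without (median 0.09 beside 0.001), but PTS by only 0.01, and it turned to -0.0073 under array quality weights. With medians aligned in place of quantile normalization, the brighter PCBD1 probe set turned from 0.08 to -0.07 in progesterone minus placebo, where the median of all probe sets itself shifted to -0.123.

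No relation between TPH2 and the genes of its cofactor passed across animals. Over the 12 arrays Pearson's r of TPH2 was 0.47 with SPR, 0.31 with GCHFR, 0.27 with GCH1, 0.19 with PTS and -0.26 with the brighter PCBD1 probe set. Spearman's rho was 0.25, 0.29, 0.26, 0.20 and -0.29 in the same order. With the dimmer PCBD1 probe set r was -0.11 over the 12 arrays, and the further values for PCBD1 are of the brighter one. Leaving out the first array of estrogen plus progesterone changed 1 call, that with PCBD1, whose r was then -0.70 (adjusted permutation p = 0.0318), and without the third progesterone array it was 0.06 and that with SPR -0.08. For the 5 relations the permutation p ran from 0.122 to 0.549 for r, and from 0.547 to 0.549 adjusted over the 5. Without the 2 arrays farthest from the median of TPH2, r was 0.23 with SPR, 0.51 with GCHFR, 0.27 with GCH1, 0.09 with PTS and -0.59 with PCBD1. In the 9 arrays that did not stand apart r was 0.73 with SPR and -0.70 with PCBD1 (unadjusted permutation p = 0.0557 and 0.0254), with rho of 0.43 and -0.60.

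The highest r among the 15 pairs of members was that of GCH1 with its regulator GCHFR, 0.75 (permutation p = 0.00626, adjusted 0.0939 over the 15 pairs), with a rho of 0.59 (p = 0.0455, adjusted 0.227), so the relation did not pass after adjustment. The r was 0.83 for deviations from the group means, 0.76 in the 9 arrays that did not stand apart, and 0.63 (permutation p = 0.0503) without the 2 arrays farthest from the median of GCH1. GCH1 and SPR had r = 0.66 and rho = 0.60 (permutation p = 0.0193 and 0.0451, adjusted 0.145 and 0.227), with r = 0.64 in the 9 arrays and 0.62 without the 2 farthest. Against the brighter PCBD1 probe set the r of GCH1 was -0.61 (adjusted permutation p = 0.152), against the dimmer one -0.12, and against PTS 0.09. The r of GCH1 with GCHFR was above that of GCH1 with 99.4% of all probe sets tested, and with SPR above 97.6%.

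**Figure D4:**
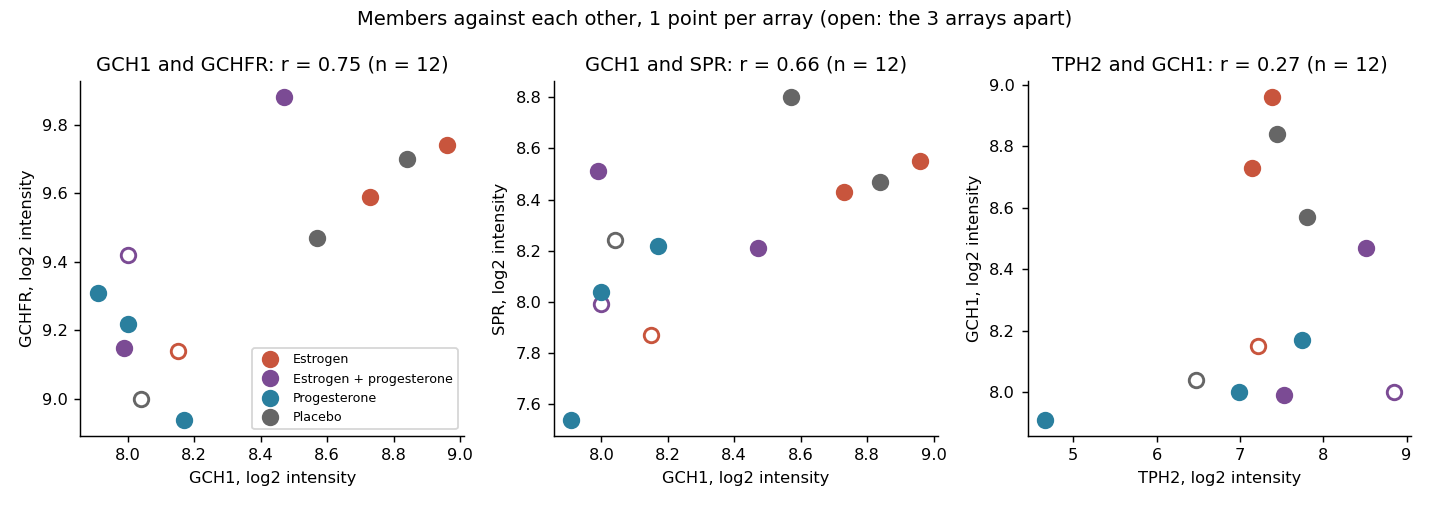
Log2 intensity of 1 member against another, with 1 point per array coloured by treatment group and open points for the 3 arrays apart. The r was 0.75 for GCH1 with GCHFR, 0.66 for GCH1 with SPR and 0.27 for TPH2 with GCH1 (n = 12), and none of the 3 passed after adjustment over the 15 pairs.

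By the same measure the named genes most like TPH2 over the 12 arrays were CACNG7, a gamma subunit of the calcium channel and AMPA receptor regulator family (r = 0.93), UCHL1, a ubiquitin hydrolase abundant in neurons (0.91), ZNF672 (0.91), TRMT10B (0.90), a tRNA methyltransferase, and DYRK1B (0.89), a protein kinase. In the 9 arrays that did not stand apart these values were 0.88 to 0.97. Those 9 include the third progesterone array, lowest in TPH2, and r without it was not computed for these genes. CACNG7 (mean log2 6.43), ZNF672 (6.41) and TRMT10B (6.46) lay near the brightest control without a target (6.41). Those most like GCH1 were LYRM9 (0.93), ZNF177 (0.92), TRPM7 (0.90), an ion channel with a kinase domain, BEND4 (0.90) and RPL9 (0.88), a ribosomal protein. They are the highest of 26383 values and are given as a description.

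Serotonin neuron markers were set beside the members because TPH2 and GCH1 are both made in these cells. This set of 8 relations, TPH2 and GCH1 against each of the 4 tested markers, was chosen after the arrays had been examined. GCH1 varied with SLC18A2 (r = 0.73, rho = 0.71, permutation p = 0.00364 and 0.0120, adjusted p of r over the 8 = 0.0291) and with FEV (r = 0.69, rho = 0.63, p = 0.0125 and 0.0320, adjusted 0.0402). Both relations were weaker without the 2 arrays farthest from the median of GCH1, with r of 0.48 (permutation p = 0.160) and 0.45 (0.196). In the 9 arrays that did not stand apart it was 0.87 and 0.76, and for deviations from group means 0.56 and 0.58. TPH2 varied with GATA2, a transcription factor of serotonin neuron development (r = 0.75, permutation p = 0.0151, adjusted 0.0402), with a rho of 0.46 (p = 0.132). The r was 0.66 (0.0391) without the 2 arrays farthest from the median of TPH2, 0.93 in the 9 arrays that did not stand apart and 0.78 for deviations from group means. With SLC18A2 the r of TPH2 was 0.50, and -0.11 without those 2 arrays. With FEV and GATA3, another such factor, it was 0.31 and 0.20, and none of these 3 passed (adjusted permutation p of 0.164, 0.376 and 0.509). For GCH1 with GATA3 and GATA2 the r was 0.51 and 0.37 (adjusted permutation p = 0.164 and 0.333).

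The third progesterone array, lowest in TPH2, was also the lowest for a minority of the listed genes, of several kinds. It also held the lowest of the 12 values for GCH1, SPR, SLC18A2 (9.34), GATA2 (6.71) and TH, the tyrosine hydroxylase of dopamine and noradrenaline neurons (6.87, with the next lowest at 8.24). Among the other listed genes it was lowest for the 14-3-3 genes YWHAZ and YWHAH, for GAD1, which makes GABA, and for CBLN1, listed as a cerebellar marker. It was not the lowest for FEV (9.15, rank 10 of 12 from the highest), GATA3 or GCHFR, and on the brighter PCBD1 probe set it was second highest (10.46). None of the listed oligodendrocyte, astrocyte, microglia or ependyma and choroid plexus markers had its lowest value there. Over all probe sets tested, this array held the lowest value for 12.7%. Of the 9 listed serotonin neuron markers, the 7 with a probe set were also summed. Their summed intensity was 2063 to 2494 in the progesterone arrays, below the other 3 groups. It was 2774 to 3702 with estrogen, 2539 to 2983 with estrogen plus progesterone and 2619 to 3590 with placebo. Of all single probe sets tested, 2.07% were likewise lowest in the progesterone arrays, a share that holds for single probe sets and not for sums. The sum is weighted to the brightest markers, and others did not share its order: HTR1A was highest of 12 in the first progesterone array (6.52), and GATA2 and SLC22A3 ranked 2 of 12 there. SLC22A3, HTR1A and LMX1B were too dim to be tested. The 4 tested markers all had a lower mean with progesterone than with placebo (median log2 difference -0.31 beside -0.023 over all probe sets), and 0 passed. Lower means were also found for 3 of 3 ependyma and choroid plexus markers (median -0.34) and 4 of 5 dopamine and noradrenaline markers (-0.29). The same was true of 6 of 7 oligodendrocyte markers (-0.13). Higher means were found for 4 of 5 cerebellar (0.17) and 5 of 9 microglia markers (0.02), again with 0 passed in each list. The part of these markers in the GCH1, SPR and TPH2 values of the progesterone arrays was not tested.

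**Figure D5:**
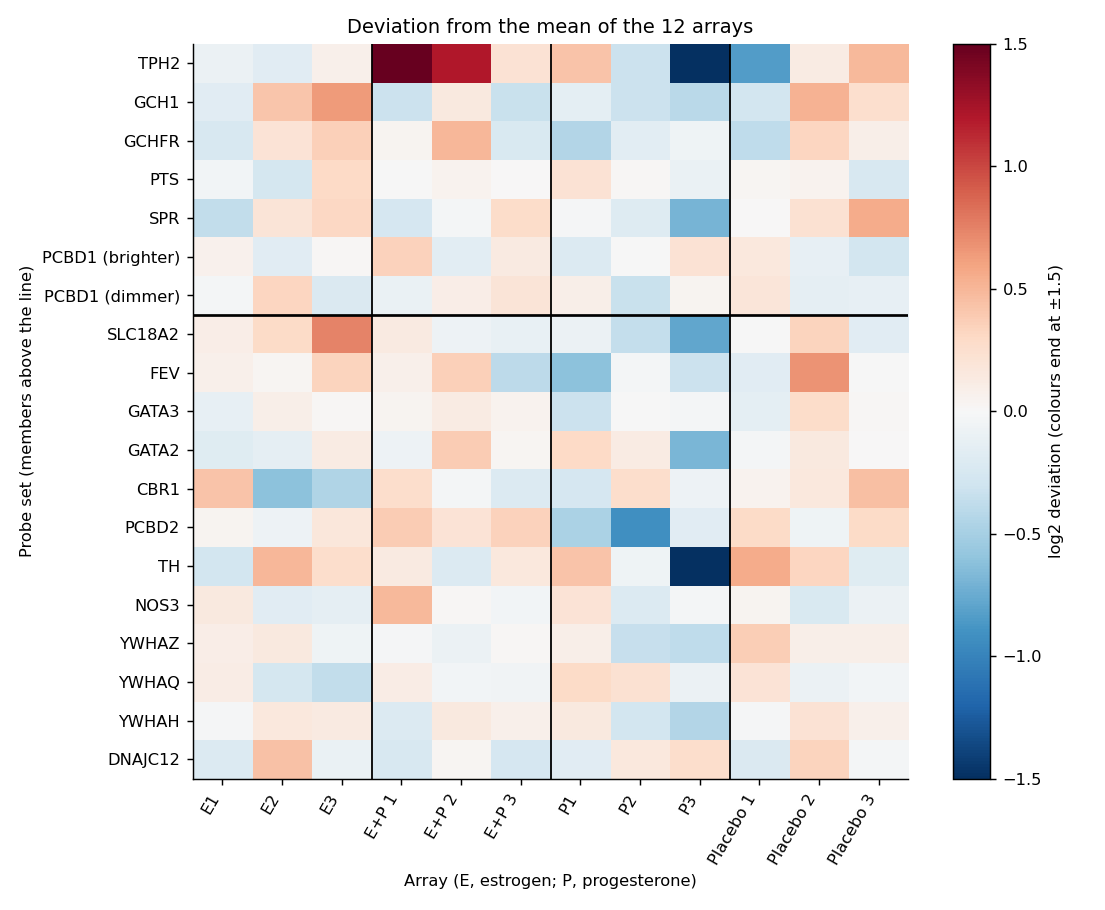
Log2 deviation of each probe set (rows) from its mean over the 12 arrays (columns, grouped by treatment), with the 7 members above the line and, below it, the tested serotonin neuron markers and related genes of the pathway; colours end at ±1.5. TPH2 has the strongest colours, and the third progesterone array is low for TPH2, SPR, SLC18A2, GATA2 and TH at once.

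The remaining cofactor genes were only partly represented. Of 6 genes of cofactor recycling and salvage, 2 had a named probe set and both were tested: PCBD2, a paralog of PCBD1, and CBR1, a carbonyl reductase that can act on cofactor precursors. PCBD2 had the largest differences between groups in this list, -0.69 ± 0.19 (log2, SE) for progesterone minus placebo (limma adjusted p = 0.252, unadjusted 0.00418) and 0.83 ± 0.19 for estrogen plus progesterone minus progesterone (adjusted p = 0.172, unadjusted 0.00119), and did not pass. CBR1 differed by -0.44 ± 0.26 with estrogen against placebo (adjusted p = 1.0). QDPR, AKR1B1 and AKR1C3 were among those with no named probe set.

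Among other enzymes that use tetrahydrobiopterin, 6 of 7 had a probe set and 2 were tested. TH differed from placebo by -0.07 with estrogen, -0.20 with estrogen plus progesterone and -0.66 with progesterone (log2, SE 0.44), and NOS3, the endothelial nitric oxide synthase, by 0.04, 0.24 and 0.08 (SE 0.18). TPH1, the tryptophan hydroxylase of the gut and pineal gland, averaged a log2 intensity of 3.65, below the brightest control without a target, as did NOS1, NOS2 and AGMO. Of 8 genes for chaperone and 14-3-3 proteins, which bind and stabilize or activate the aromatic amino acid hydroxylases, 5 had a probe set and 4 were tested. DNAJC12, the hydroxylase co-chaperone, differed from placebo by 0.02, -0.18 and 0.05 (SE 0.21) in the 3 treated groups taken in the same order. The nearest to passing in this list was YWHAZ, a 14-3-3 protein, at -0.40 ± 0.16 for progesterone minus placebo (adjusted p = 0.459). In all 9 comparisons limma called 0 members of these 3 lists and of the serotonin neuron list.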

How the data were processed

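Per the labels, total RNA was extracted with Trizol and RNeasy columns and labelled with biotin. The authors deposited 1 linear intensity per probe set and array, each array scaled to a trimmed mean of 200.0 (2% removed at each end, found from the values). No source used here names the software. After removal of 99 controls, intensities were floored at the 5th percentile (4.99), log2 transformed and quantile normalized. The 26383 of 52766 probe sets whose mean reached the median (log2 6.31) were tested with limma 3.58.1 in R 4.3.3, 1 mean per group over 12 arrays, two-sided, Benjamini-Hochberg over all of them, threshold 0.05. Residual and prior degrees of freedom were 8 and 3.54. Array medians spanned 71.1 to 98.6 before normalization. Main effects average the differences over the other hormone. Correlations used 100000 permutations, two-sided. The fit was tested on simulated data.

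The labels number arrays 1 to 3 in each group but tie no number to a shared animal or day. From the data, same-numbered arrays of estrogen plus progesterone and placebo (correlation of deviations 0.103 to 0.274) and of estrogen plus progesterone and estrogen (0.142 to 0.507) met the limit of 0.1 for pairing, and the other 4 pairs of groups did not.

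Members and lists were chosen with earlier results of these data known. Named were all member probe sets, measured genes of 4 lists (cofactor recycling and salvage, other enzymes using the cofactor, hydroxylase chaperone and 14-3-3 proteins, serotonin neuron markers), up to 3 of each further cell type list and the 5 genes most correlated with TPH2 and GCH1. A gene with several probe sets was read on its brightest. Alternatives changed normalization, floor, filter, arrays, weights and block. No sequences or genome positions were used. 1 gene of the recycling list is not reported here. Figures were drawn with matplotlib 3.10.9.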

Additional observations from a re-analysis of the deposited data

How the results depend on the processing

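With 3 animals per group, TPH2 can be compared only to within ± 1.42 log2 units over all 12 arrays and the other members to within ± 0.37 to ± 0.56, and dim probe sets are bounded by the array's background. In all settings run no member passed, and the lowest adjusted p was 0.154 (limma, TPH2 in estrogen plus progesterone minus progesterone, without the first progesterone array). Of 498 values under other settings, 22 changed sign and 0 changed side of the threshold. Of 816 values with 1 array left out, 59 changed sign and 1 changed side, the correlation of TPH2 with the brighter PCBD1 probe set. The floor, the absence of a filter and fitting only the groups compared turned no sign. TPH2 has no value under the 75th percentile filter, which it does not reach.

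The replicate number as a block changed no member call. Over all probe sets it gave 20 calls in place of 35 in progesterone minus placebo, 19 in place of 35 in estrogen minus progesterone, and 2 in place of 0 for the progesterone main effect. With the block TPH2 differed by 1.06 in estrogen plus progesterone minus placebo (adjusted p = 0.997) and by 1.05 in estrogen plus progesterone minus estrogen.

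Median alignment gave, on the log2 scale, 0.0007 for the GCH1 interaction, and for PCBD1 0.18 in estrogen minus progesterone, -0.07 in progesterone minus placebo and -0.01 in the progesterone main effect. For PTS it gave 0.08 in estrogen minus progesterone, -0.05 in estrogen plus progesterone minus estrogen, 0.03 in estrogen plus progesterone minus progesterone and -0.02 in the progesterone main effect, and the correlation of TPH2 with PCBD1 became 0.16. It shifted the median of all probe sets to -0.123 in progesterone minus placebo and 0.132 in estrogen minus progesterone. Array quality weights gave 0.06 for the GCH1 interaction, -0.02 for GCHFR in estrogen plus progesterone minus placebo, -0.01 for the PCBD1 interaction, -0.0073 for the PTS estrogen main effect and -0.18 for TPH2 in estrogen minus placebo. Without the 3 arrays apart the values were 0.06 for the GCH1 interaction, -0.07 for GCHFR in estrogen plus progesterone minus placebo, -0.01 for PCBD1 in estrogen plus progesterone minus progesterone, -0.13 for its interaction, -0.36 for TPH2 in estrogen minus placebo and -0.20 for its progesterone main effect. The other PCBD1 probe set gave 0.09 in estrogen minus progesterone and -0.05 in progesterone minus placebo. The cause was not tested.

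Leaving out 1 array at a time gave these ranges where a sign or a call changed. GCH1 ran from -0.09 to 0.37 in estrogen minus placebo, -0.03 to 0.21 in estrogen plus progesterone minus progesterone and -0.24 to 0.22 in the interaction. GCHFR ran from -0.10 to 0.27 in estrogen minus placebo, -0.20 to 0.16 in estrogen plus progesterone minus estrogen and -0.11 to 0.25 in estrogen plus progesterone minus placebo. PCBD1 ran from -0.05 to 0.17 in estrogen minus placebo, -0.13 to 0.08 in estrogen minus progesterone, -0.01 to 0.24 in estrogen plus progesterone minus progesterone and -0.07 to 0.18 in the interaction. It also ran from -0.03 to 0.20 in progesterone minus placebo. PTS ran from -0.06 to 0.08 in the estrogen main effect, -0.10 to 0.18 in estrogen minus placebo, -0.20 to 0.08 in estrogen minus progesterone and -0.10 to 0.17 in estrogen plus progesterone minus estrogen. It also ran from -0.02 to 0.13 in estrogen plus progesterone minus placebo, -0.09 to 0.06 in estrogen plus progesterone minus progesterone, -0.20 to 0.08 in the interaction and -0.0044 to 0.14 in the progesterone main effect. It also ran from -0.0017 to 0.17 in progesterone minus placebo. SPR ran from -0.06 to 0.15 in the estrogen main effect and -0.26 to 0.08 in estrogen plus progesterone minus estrogen. TPH2 ran from -0.37 to 0.29 in estrogen minus placebo, -0.12 to 1.42 in estrogen minus progesterone, -0.18 to 0.59 in the progesterone main effect and -1.41 to 0.13 in progesterone minus placebo. The correlation of TPH2 ran from -0.01 to 0.46 with GCH1, -0.70 to 0.06 with PCBD1 and -0.08 to 0.67 with SPR.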

Other observations

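The lists of other cell types in the block gave no calls in any comparison, and their summed intensities are given for the neighbours of serotonin neurons. The 6 dopamine and noradrenaline markers with a probe set summed to 1588 to 2204 in the estrogen arrays, 1822 to 1979 with estrogen plus progesterone and 1622 to 2006 with progesterone, against 1775 to 2632 with placebo. SLC6A3, the dopamine transporter, and DBH, the noradrenaline-making enzyme, averaged log2 intensities of 8.01 and 6.76, beside 6.41 for the brightest control without a target. The 6 cerebellar neuron markers summed to 1224 to 2785 with estrogen, 1020 to 2031 with estrogen plus progesterone and 924 to 1526 with progesterone, against 996 to 1195 with placebo. GAD1, which makes GABA, was bright (11.32), and SLC17A8, a glutamate transporter found in some serotonin neurons, dim (6.84).

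The summed ranges of the other lists, in the order estrogen, estrogen plus progesterone, progesterone and placebo, were 2916 to 3578, 2801 to 3545, 2543 to 3386 and 2474 to 3554 for 2 GABA neuron markers. They were 158 to 407, 135 to 241, 155 to 221 and 116 to 212 for 2 glutamate neuron markers, and 23482 to 26893, 26241 to 27608, 25003 to 30388 and 26994 to 29566 for 7 oligodendrocyte markers. For 5 astrocyte markers they were 21055 to 22225, 20753 to 24590, 20694 to 22780 and 18694 to 21602, and for 9 microglia markers 4585 to 4977, 3886 to 4533, 4159 to 5490 and 4107 to 5526. For 4 ependyma and choroid plexus markers they were 630 to 903, 603 to 958, 433 to 791 and 652 to 774. Their part in the member values was not tested.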
